A study of Mus musculus with 9 samples.

Results

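Open chromatin of a mouse osteosarcoma line that carries the p53 R172H substitution was compared with that of an osteosarcoma line without p53. The R172H line (genotype p53R172H/-) had 1 Trp53 allele with the substitution and 1 null allele, and the null line (p53-/-) had no functional allele. Each genotype was represented by 1 line grown from a primary mouse osteosarcoma, a bone tumour, and by 3 ATAC-seq libraries. Another line, p53R245W/- (3 libraries), entered only to say whether a region was also called there. All lines were cultured in DMEM with fetal bovine serum and antibiotics, and no treatment was applied. With a single line per genotype, the p53 allele and the line cannot be told apart. Nothing in the labels ties the 3 libraries of a line to separate cultures or animals, so every spread and p-value given here measures the difference between libraries, which may be technical.

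Peaks of the 9 libraries that shared at least 1 bp were merged into 124230 regions. A region counted as called where the library had a peak inside it. At least 1 R172H or null library called 107271 of them. The members of the comparison were the 18022 regions (16.8%) called in 3 of 3 R172H and 0 of 3 null libraries, termed R172H alone, the 12792 regions (11.9%) called in 3 of 3 null and 0 of 3 R172H libraries, termed null alone, and the 38836 regions (36.2%) called in all 6. Peak strength is given as the percentile of the peak's −log10 q within its own library's list, from the weakest peak near 0 to the strongest at 100. Coordinates are GRCm38.

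p53 is a transcription factor that restrains cell division and drives cell death after DNA damage, and its loss is a frequent event in osteosarcoma. The R172H substitution lies in the DNA-binding domain and disturbs its fold, so the protein no longer binds p53 sites normally, while the altered protein often accumulates in tumour cells. ATAC-seq cuts DNA with a Tn5 transposase wherever nucleosomes leave it exposed, and its peaks mark promoters, enhancers and other regulatory DNA. Osteosarcoma cells resemble bone-forming osteoblasts, whose programme is led by the factors Runx2 and Sp7.

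The 5 promoters below lie in the strongest end regions open in a single line and are shown as examples of the DNA concerned. Of the 12 such regions named further on, 7 held a RefSeq promoter of their gene, and the examples were picked after their letters were known. Each is the RefSeq GRCm38.p6 stretch of 300 bases from 250 before to 50 after an annotated start, written along the gene's strand. Capitals mark matches to the motifs searched on both strands. These were TGANTCA for AP-1 factors, TGTGGT for Runx factors, GGAATG for TEAD factors, ACAAAG for Sox factors, AGATAA for zinc-finger factors of the GATA family, TAATTA for homeobox factors, CCAAT for NF-Y and GGGCGG for Sp factors. Cdkn2b (chr4:89310983-89311282, minus strand) and Hoxa5 (chr6:52204538-52204837, minus strand) were open in R172H alone. Runx3 (chr4:135120395-135120694, plus strand), Cavin4 (chr4:48663264-48663563, plus strand) and Kcnn4 (chr7:24370013-24370312, plus strand) were open in null alone.
Cdkn2b: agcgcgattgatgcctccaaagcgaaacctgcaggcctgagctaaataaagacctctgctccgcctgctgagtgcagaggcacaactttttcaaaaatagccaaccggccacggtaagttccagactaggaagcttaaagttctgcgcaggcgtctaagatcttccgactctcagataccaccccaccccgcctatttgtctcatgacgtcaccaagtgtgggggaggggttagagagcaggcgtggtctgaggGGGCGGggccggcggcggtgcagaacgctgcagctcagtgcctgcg
Hoxa5: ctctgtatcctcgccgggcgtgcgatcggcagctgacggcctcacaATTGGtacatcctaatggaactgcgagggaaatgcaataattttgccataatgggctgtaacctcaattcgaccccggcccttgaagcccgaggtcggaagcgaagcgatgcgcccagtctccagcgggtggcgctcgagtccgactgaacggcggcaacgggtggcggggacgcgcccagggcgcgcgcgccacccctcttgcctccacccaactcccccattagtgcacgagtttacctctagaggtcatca
Runx3: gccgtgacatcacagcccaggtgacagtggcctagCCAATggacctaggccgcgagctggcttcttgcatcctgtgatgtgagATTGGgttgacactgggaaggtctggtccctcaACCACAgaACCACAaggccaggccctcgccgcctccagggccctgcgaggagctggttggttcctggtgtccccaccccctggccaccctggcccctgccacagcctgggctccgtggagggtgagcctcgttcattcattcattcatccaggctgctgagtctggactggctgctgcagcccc
Cavin4: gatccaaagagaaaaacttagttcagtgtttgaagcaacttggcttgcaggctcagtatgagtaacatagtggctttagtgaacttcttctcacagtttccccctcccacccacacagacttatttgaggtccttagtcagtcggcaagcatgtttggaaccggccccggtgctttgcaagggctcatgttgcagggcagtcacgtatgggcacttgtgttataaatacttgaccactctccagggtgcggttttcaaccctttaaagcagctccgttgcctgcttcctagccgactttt
Kcnn4: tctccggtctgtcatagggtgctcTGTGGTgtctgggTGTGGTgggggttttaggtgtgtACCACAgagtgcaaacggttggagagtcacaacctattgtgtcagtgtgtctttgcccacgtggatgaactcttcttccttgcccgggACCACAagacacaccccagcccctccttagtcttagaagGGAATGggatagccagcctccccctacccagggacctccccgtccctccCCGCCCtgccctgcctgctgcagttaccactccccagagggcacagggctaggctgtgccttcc
The Cdkn2b stretch held 1 Sp match and the Hoxa5 stretch 1 NF-Y match. The Runx3 stretch held 2 Runx and 2 NF-Y matches, the Cavin4 stretch 0 matches and the Kcnn4 stretch 4 Runx matches, 1 TEAD match and 1 Sp match. The promoters not printed, of Creld1 and Rab3c, both open in R172H alone, held 1 NF-Y match each and 2 and 1 Sp matches. None of the 7 held an AP-1 match, and the GC content of Runx3 (63.7%) was above those of Cdkn2b (57.7%) and Hoxa5 (61.7%), so the examples do not stand for the differences between the sets given next. These matches are descriptions of the letters and do not show that a factor was bound.

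Over all genes, promoters open in null alone held AP-1 and Runx letters more often than those open in R172H alone. Promoter sequences were present for 17492 of 21887 protein-coding genes (79.9%). Of these promoters 456 lay wholly inside a region of R172H alone and 145 wholly inside a region of null alone. Promoters that overlapped a region only in part were not counted as open. The AP-1 motif was in 29 of the 145 null-alone promoters, 43 of the 456 R172H-alone promoters (9.43%) and 6.99% of all 21263 promoters. Runx letters were in 35 (24.1%) of the null-alone and 54 (11.8%) of the R172H-alone promoters, against 15.0% of all. Sp letters went the other way, in 39.3% of null-alone, 58.6% of R172H-alone and 46.2% of all promoters. The median GC content was 54.7% in null-alone, 60.3% in R172H-alone and 56.3% in all promoters, and moved with the Sp share; its part in the motif shares was not tested. TEAD letters were in 14.5% of both sets. Promoters in regions called in all 6 that rose or fell had similar shares, with AP-1 in 4.29% of 4619 and 5.17% of 2108 and Runx in 10.7% and 11.5%.

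The libraries of a line resembled each other far more than those of the other line. The R172H libraries had 72840, 74352 and 72907 peaks and the null libraries 65199, 65942 and 65772, a mean of 73366 ± 854 against 65638 ± 389 (SD, n = 3 each). The groups did not overlap, at an exact two-sided permutation p of 0.1. With 3 libraries a group no smaller p can be had. The Jaccard index of 2 libraries is the base pairs covered by peaks of both over those covered by peaks of either. Its mean was 0.760 for a pair of R172H libraries, 0.795 for a pair of null libraries and 0.460 for a pair from different lines. Sequencing depth is unknown from peak lists. The background pile-up solved from each peak's fold and p, a relative measure of depth, was 4.98 ± 0.33 in R172H and 5.41 ± 0.390 in null libraries and overlapped between the lines (exact two-sided permutation p = 0.2). The lists do not read the p53 base itself. The Trp53 gene had a region at 1 end in all 6 libraries at percentiles 91.4, 91.1 and 93.7 in R172H and 91.0, 89.5 and 89.5 in null libraries, with no difference past the threshold (limma adjusted p = 0.299). Such a peak does not check the genotype, since a null allele can keep this end. A weak null-alone region 138 bp beyond the other end of Trp53 (chr11:69592011-69592707) stood at percentiles 10.8, 14.1 and 21.4 and was in 0 of 3 R245W libraries.

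Regions of a single line lay mostly away from genes' ends. An end here is either end of a gene's span in RefSeq with 1000 bp on each side, since the gene table gives no strand, and alternative starts inside a span are not covered. Of the R172H-alone regions 1145 (6.35%) lay at a gene end, and of the null-alone regions 605 (4.73%), against 11855 (30.5%) of the regions called in all 6. Regions inside a gene made up 44.7% of R172H alone and 50.8% of null alone, and regions between genes and over 50 kb from any gene end 23.7% and 18.6%. With those deep inside long genes, 39.7% and 32.2% were farther than 50 kb from every gene end, where 17.7% of the all-6 regions lay. Over all 107271 regions, 15.1% lay at a gene end, 44.2% inside a gene and 15.1% between genes and over 50 kb away. Of all regions 26.4% were farther than 50 kb from every gene end. The inside-a-gene share of R172H alone thus lay near that of all regions. The median strength of the single-line sets was similar, at percentile 40.5 for R172H alone and 38.8 for null alone, and 134 and 84 of them passed percentile 90 in every library of their line. Just outside the rule, the 5498 regions called in 2 R172H and 0 null libraries had a median percentile of 13.0 and the 2230 called in 3 R172H and 1 null library one of 36.6. On the null side, the same values were 12.1 for 3466 regions and 37.1 for 2300.

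Regions of R172H alone were mostly not called in the R245W line. Of the R172H-alone regions 12214 (67.8%) were in 0 of 3 R245W libraries and 3781 (21.0%) in 3 of 3. Of the null-alone regions 3402 (26.6%) were in 0 of 3 and 7717 (60.3%) in 3 of 3. Over all 107271 regions of at least 1 R172H or null library, 34.8% were in 0 of 3 and 54.9% in 3 of 3, so the null-alone shares lay near those of all regions. Most R172H-alone regions were called in the R172H line alone among the 3 lines. All regions include those called in all 6, of which 93.9% were in 3 of 3 R245W libraries. The null-alone shares are therefore not read as a trait of that set. The comparison with R245W shares no library with either group.

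Counted by gene, with its ends pooled, 698 genes (4.80% of the 14540 with an open end in at least 1 library) had peaks at their ends in R172H alone and 279 (1.92%) in null alone. Single end regions were then ranked by strength whatever the gene's other end showed, so a gene named here need not be among these. The strongest R172H-alone end region belonged to Wt1, a zinc-finger transcription factor of kidney and gonad development. Its region (chr2:105126149-105127670) stood at percentiles 99.2, 98.6 and 98.9 in the R172H libraries, with no peak in any null or R245W library. The other end of Wt1 was open in all 6, with 86.6 ± 2.73 in R172H and 76.2 ± 3.0 in null libraries (SD, n = 3; limma adjusted p = 0.000346), and 7 regions near Wt1 were in R172H alone and 0 in null alone. Tiam1, an activator of the GTPase Rac, followed at 98.9, 98.8 and 98.4 (chr16:90142961-90144679). Cdkn2b, which encodes a p15 inhibitor of cyclin-dependent kinases, stood at 97.5, 96.5 and 97.3 (chr4:89310183-89311474). Creld1 (96.9, 97.4 and 97.2), the vesicle-traffic GTPase Rab3c (96.7, 95.2 and 96.0) and the homeobox factor Hoxa5 (94.9, 94.4 and 94.4) completed the 6 strongest. All of these but Wt1 were also called in 3 of 3 R245W libraries. Creld1, Cdkn2b and Hoxa5 are among the 698 genes, while Wt1 and Rab3c had null peaks at another end and the Tiam1 peaks of 1 R172H library did not reach the 1000 bp window.

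In null alone, the strongest end region was that of Runx3, a Runt-family factor related to Runx2. Its region (chr4:135118932-135121557) stood at percentiles 99.2, 98.8 and 98.4 in the null libraries and had no peak in any R172H library. Runx3 also had 5 null-alone regions near it against 1 of R172H alone. Smyd4 (94.5, 94.4 and 94.0), Sybu (93.6, 95.6 and 96.2), which links mitochondria and vesicles to microtubule motors, and Cavin4 (91.9, 91.6 and 94.2), a muscle caveolar protein, came next. Pop1, a subunit of the RNA-cleaving RNase P complex, stood at 92.6, 90.1 and 92.5 and Kcnn4, a calcium-activated potassium channel, at 89.8, 91.5 and 90.1. All 6 were called in 3 of 3 R245W libraries. Runx3 and Cavin4 are among the 279 genes, while Smyd4 and Pop1 had a peak of all 3 R172H libraries, and Sybu and Kcnn4 one of 1, elsewhere at their ends.

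**Figure D1:**
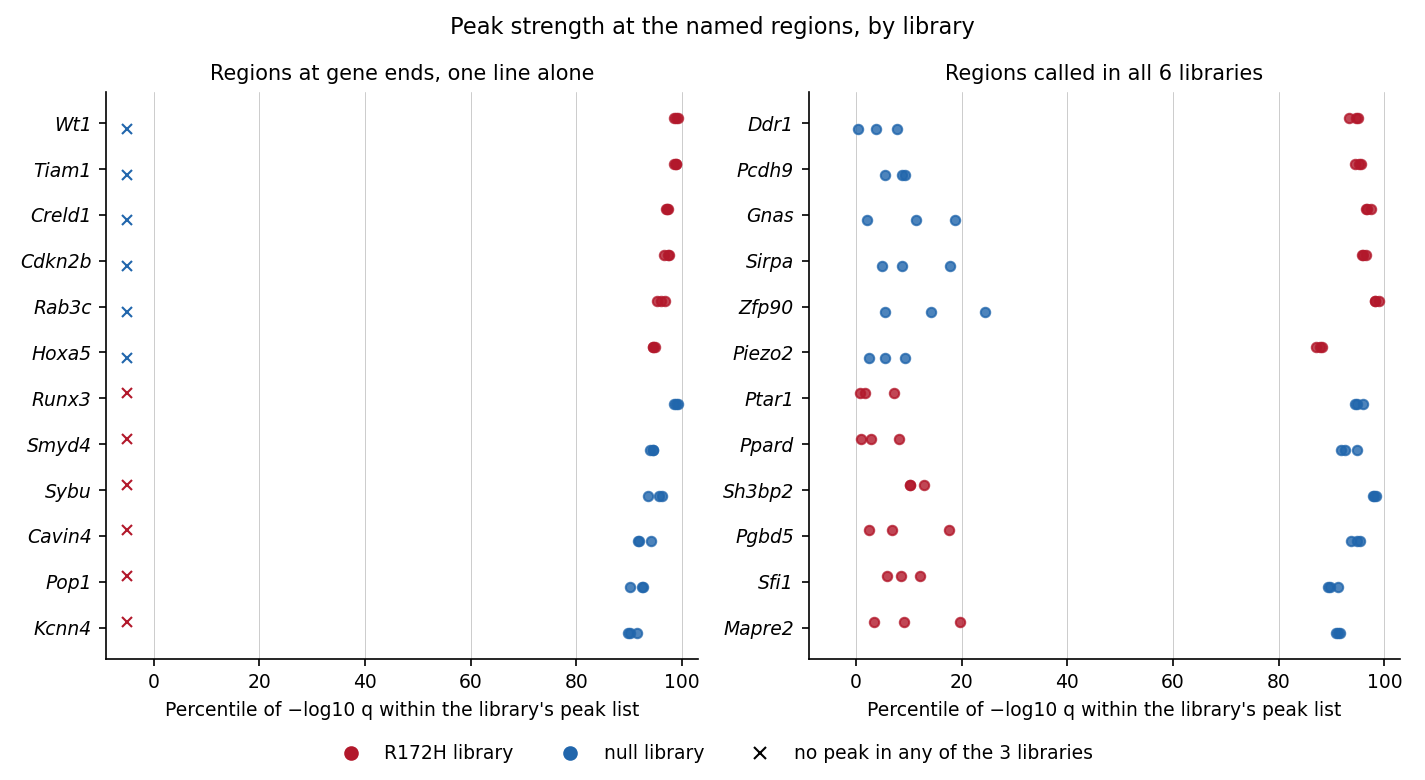
Percentile of −log10 q within each library's list (horizontal axis) for the 12 strongest gene ends of a single line (left) and the 12 largest rank shifts at regions called in all 6 libraries (right). Each dot is 1 library, red for R172H and blue for null, and a cross stands for no peak in any of the 3 libraries of that line. At the gene ends the line with peaks lies at 89.8 or above, and at the shifted regions the groups do not overlap.

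Away from gene ends the strongest R172H-alone region reached percentiles 99.7, 99.7 and 99.4 and lay 25.3 kb from Ccdc42 (chr11:68623263-68624275). Others lay inside Sgms1, a sphingomyelin synthase gene (98.5, 98.5 and 98.2), inside the St8sia1 ganglioside synthase gene (98.0, 98.9 and 98.9) and inside the intraflagellar transport gene Ift81 (97.1, 97.2 and 97.7), all 3 in 0 of 3 R245W libraries. Regions near B4galt5 (98.7, 99.1 and 99.4) and inside the scramblase gene Ano6 (98.2, 98.4 and 98.2) were the other two. In null alone the strongest lay near Dnah17 (98.0, 97.7 and 97.7) and inside the deubiquitinase gene Usp12 (97.6, 98.1 and 98.1), Gramd3 (97.3, 98.3 and 97.8), the heparan sulfate gene Extl3 (98.1, 97.3 and 97.1) and the factor gene Glis1 (97.6, 98.2 and 96.8), with a sixth near Adamtsl4 (98.0, 97.6 and 97.2). All 6 of these null-alone regions were called in 3 of 3 R245W libraries.

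Whole stretches of chromosome held peaks in a single line. Intervals between neighbouring null peaks of any library that contained at least 5 R172H regions numbered 959, and the reverse kind 256. A stretch of 113.9 kb on chromosome 4 was without peaks in the null libraries and held Cdkn2a and Cdkn2b, neighbouring genes for the inhibitors p16, p19 and p15 of the cell cycle. There the R172H libraries had 5 to 7 regions each, among them the Cdkn2a end at percentiles 93.9, 95.01 and 93.6 (chr4:89294146-89295773). The files hold no measure of DNA copy number, so missing DNA and closed chromatin cannot be told apart in such intervals.

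Intervals with the most R172H-alone regions were those around Tshz2 on chromosome 2 (30 regions over 993.2 kb, 33 of the 38 R172H regions there in 0 of 3 R245W libraries) and 5 stretches of chromosomes X and 5. The reverse interval with the most null-alone regions lay on chromosome 15 (24 regions over 698.1 kb with Pdzrn4 and Cntn1), and the next, with 19 regions over 1136.1 kb, held Sox2, a stem-cell factor, on chromosome 3. In windows of 1 Mb, 465 of 2480 had at least 10 more called regions in R172H than in null, by the mean of 3 libraries, and 134 at least 10 more in null. The widest gaps in the null direction lay side by side on chromosome 7. From 71 to 75 Mb the null libraries called 266, 277 and 282 regions and the R172H libraries 85, 82 and 86. Of the 113 null-alone regions there 87 were in 0 of 3 R245W libraries, and their median percentile was 26.3. Of 54 regions called in all 6 there, 39 fell in R172H and 11 rose.

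**Figure D2:**
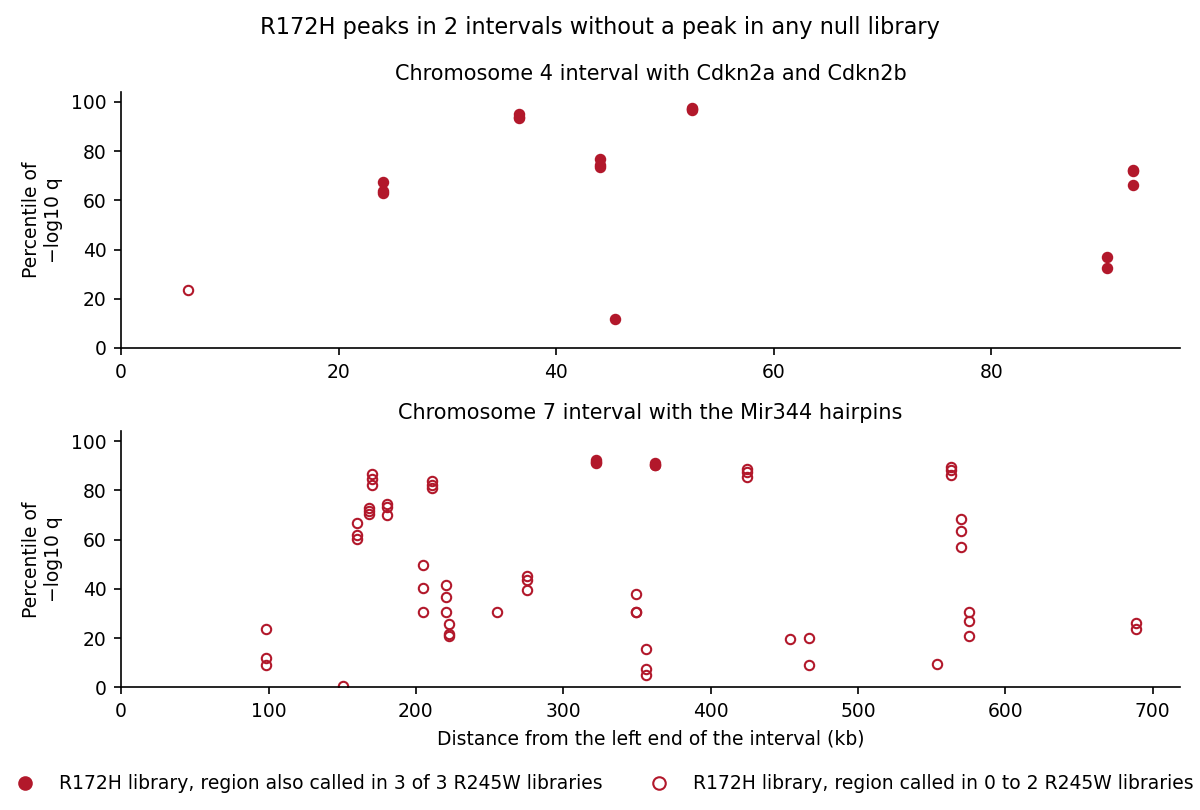
Peaks of the 3 R172H libraries in 2 intervals in which no null library had a peak, by distance from the interval's left end in kb (horizontal axis) and percentile of −log10 q (vertical axis). Each circle is 1 library, filled where the region was also called in 3 of 3 R245W libraries. The chromosome 4 interval holds peaks above percentile 90, filled, and the Mir344 interval holds mostly open circles.

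The chromosome 7 interval plotted holds a microRNA cluster. Of 13 hairpins of the Mir344 family within 402.2 kb of chromosome 7, with 0 protein-coding genes in that span, 9 lay inside R172H-alone regions, and no region in the span was called in any null library. Ndn, an imprinted gene, is the nearest named gene on 1 side. MicroRNAs choose their targets mainly by the seed, bases 2 to 8, given here in capitals in the mature RefSeq sequences, since members with 1 seed can share targets.
mmu-miR-344d-3p: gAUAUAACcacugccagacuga
mmu-miR-344e-3p: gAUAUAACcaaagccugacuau
mmu-miR-344-3p: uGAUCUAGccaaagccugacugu
mmu-miR-344c-3p: uGAUCUAGucaaagccugacagu
mmu-miR-344b-3p: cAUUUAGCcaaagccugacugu
mmu-miR-344c-5p: aGUCAGGCugcuggcuagaguac
The arm miR-344d-3p is made from 3 hairpins (Mir344d-1, Mir344d-2 and Mir344d-3) and shares its seed with miR-344e-3p. Likewise, miR-344-3p comes from both Mir344 and Mir344-2 and shares its seed with miR-344c-3p, while miR-344b-3p has another seed. The seed of miR-344c-5p recurs in the 5p arms of 5 other hairpins open in R172H alone.

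The strongest Mir344 regions were those of Mir344c, at percentiles 91.7, 91.3 and 92.5 in the R172H libraries, and Mir344, at 90.3, 91.2 and 90.1. These alone of the 9 were also called in 3 of 3 R245W libraries. Mir344-2 stood at 88.6, 85.6 and 87.5, Mir344d-2 at 82.1, 84.8 and 86.7 and Mir344d-3 at 82.2, 80.9 and 83.8. Mir344d-1 (72.9, 71.7 and 70.3), Mir344i (63.4, 68.4 and 56.8), Mir344b (45.3, 43.8 and 39.4) and Mir344e (30.5, 41.5 and 36.7) were weaker. Mir344g lay in a region of 2 R172H libraries, and Mir344f, Mir344h-1 and Mir344h-2 in no region. Hairpins that give the same mature sequence are identical over its bases, but the 5p arms of Mir344d-1, Mir344d-2 and Mir344d-3 differ. Whole hairpins were not compared, and how reads that fit several places were handled is not given in the sources used here. Over all 1005 hairpins in the RefSeq table, 35 lay within 1000 bp of an R172H-alone region and 28 of a null-alone region. Those of R172H alone included the neighbours Mir130b and Mir301b (78.9, 79.8 and 78.6), and those of null alone Mir199b (54.9, 58.5 and 59.4) and Mir10b (60.1, 54.4 and 59.1).

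Single-line regions were spread unevenly over the chromosomes. Chromosome X had 25.8% of its regions in R172H alone and 7.26% in null alone, a ratio of 3.55. Chromosomes 2, 6, 8 and 19 had 20.4%, 21.4%, 20.8% and 21.1% in R172H alone and 8.72%, 9.95%, 8.78% and 7.48% in null alone. The direction was opposite on chromosome 4, with 12.2% and 15.4%, and on chromosome 7, with 11.97% and 14.0%. At the regions called in all 6, the median R172H-minus-null percentile was 7.46 on chromosome 19, 7.19 on 8, 6.77 on 2, 6.03 on 6 and 3.87 on X, against -2.39 on 4. On chromosome 7 the median was 1.13, below the 2.58 over all regions, and 26.7% of its shared regions rose and 32.5% fell. DNA copy number per chromosome cannot be told apart from chromatin here, and the part of it in any gene's result was not tested.

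**Figure D3:**
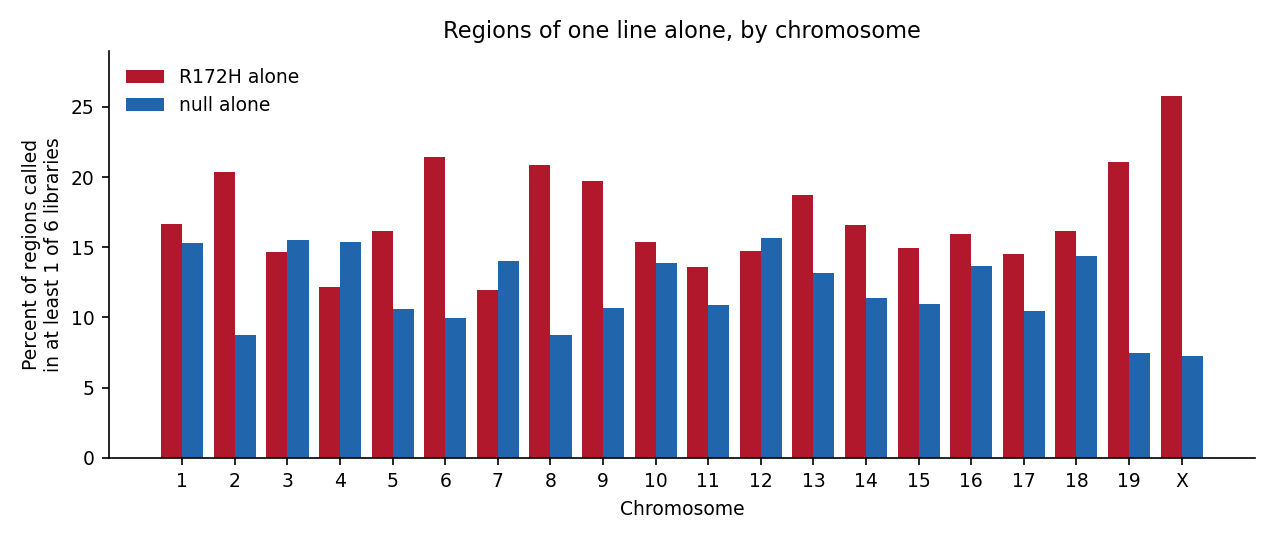
Percent of each chromosome's regions, of those called in at least 1 of the 6 libraries, that were called in R172H alone (red) and null alone (blue). Chromosome X reaches 25.8% in R172H alone, and chromosomes 3, 4, 7 and 12 have more regions in null alone.

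Genes were ranked by their R172H-alone minus null-alone regions, with each region given to the nearest gene end within 50 kb. Of 17563 genes with a region, 4681 (26.7%) had more regions in R172H alone and 3571 (20.3%) more in null alone. Gab1, an adaptor that carries receptor tyrosine kinase signals, had 12 R172H-alone and 0 null-alone regions (chr8:80772770-80908573), 8 of them in 0 of 3 R245W libraries. The lowest percentile over the R172H libraries had a median of 25.7 for these 12 regions and 34.6 for all R172H-alone regions. C1qtnf7 had 12 and 1, all 12 in 0 of 3 R245W libraries. A pair of genes that modify heparan sulfate, the sugar chain that holds growth factors at the cell surface, followed: Hs3st3a1 with 11 and 1, and Hs6st2 on chromosome X with 10 and 0. The homeobox factor Pknox2 (10 and 0) and the adhesion receptor Adgrd1 (10 and 1) completed the 6.

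In the null direction Lpar1, a receptor for lysophosphatidic acid, had 3 R172H-alone and 12 null-alone regions, 7 of the 12 in 3 of 3 R245W libraries. The VIP receptor gene Vipr2 and the zinc-finger homeobox gene Zfhx4 had 0 and 9 each, and Mctp2 and the protein kinase A subunit gene Prkar2b 0 and 8 each. Mctp2 lies in the chromosome 7 stretch described above. The number of regions per gene depends on the distance allowed: within 20 kb the genes named here kept their direction, with net differences of 4 to 6 regions for the 6 R172H genes, 4 for Vipr2, Mctp2 and Prkar2b and 1 for Lpar1.

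Strength shifted widely at regions that both lines shared. Of 38836 regions called in all 6 libraries, 13841 (35.6%) rose and 11597 (29.9%) fell in R172H at an adjusted p under 0.05 (limma on normal scores of the rank among these regions). List percentiles did not overlap between the lines at 27942 regions (71.9%). The median shift was 2.58 points with an SD of 19.98 over regions, while the median SD between libraries of a line was 2.15 points in R172H and 2.16 in null. Points compare percentiles of whole lists, which are longer in R172H, while rises and falls were called on ranks among the shared regions. The part of list length in the median shift was not tested. By at least 20 points 5315 regions rose and 4110 fell, and by at least 50 points 729 and 674. Among regions at gene ends 41.7% rose and 20.6% fell. Gene ends were steadier in size: 10.8% of 11855 called regions at gene ends moved by 20 points or more past the threshold, against 30.2% of 26981 elsewhere.

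**Figure D4:**
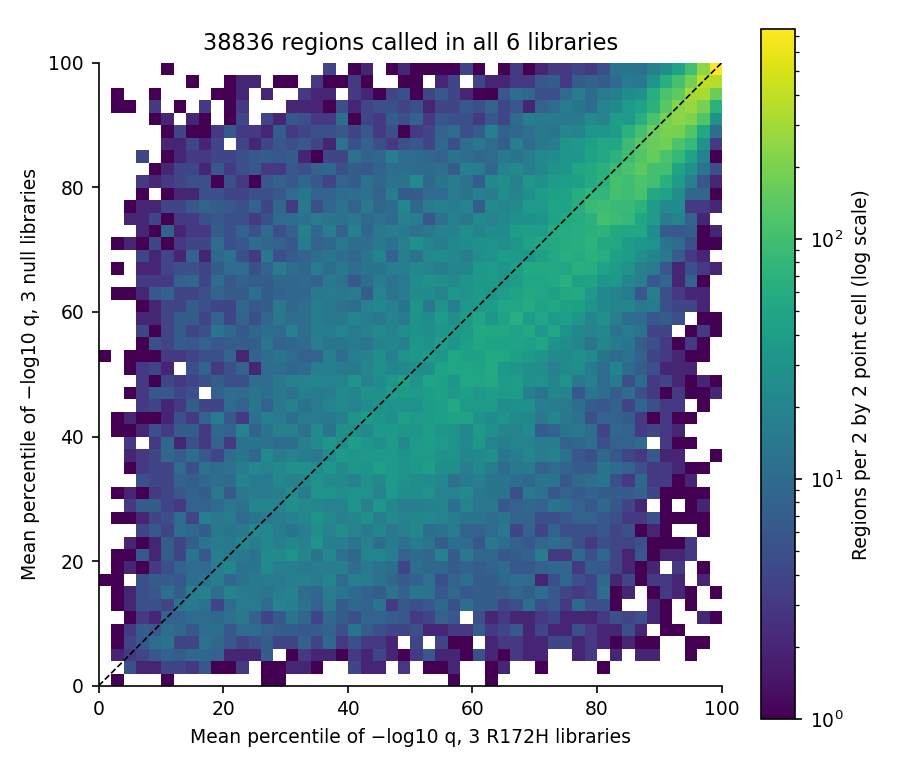
Mean percentile of −log10 q in the 3 R172H libraries (horizontal axis) and the 3 null libraries (vertical axis) at the 38836 regions called in all 6, as counts per cell of 2 by 2 points on a log colour scale. The dashed line marks equal percentiles. Most regions follow it, strongest at the top right, and 729 and 674 regions lie 50 points or more to either side.

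The largest rise was at a region 15.1 kb from Ddr1, a collagen receptor kinase (chr17:35719850-35721037). It stood at 94.99, 93.3 and 94.5 in R172H and 0.377, 7.83 and 3.85 in null libraries. The groups did not overlap, and the difference was 90.3 points (limma adjusted p = 5.19e-11). Inside the protocadherin gene Pcdh9 a region rose from 7.83 ± 2.03 to 95.1 ± 0.525 (SD, n = 3), and near Gnas, the gene for a stimulatory G protein subunit, another rose from 10.7 ± 8.38 to 96.8 ± 0.527. Regions inside Sirpa, which encodes the phagocytosis checkpoint receptor for CD47, and near Zfp90 rose by 85.7 and 83.8 points. The end of Piezo2, a mechanically gated ion channel gene, rose by 81.9 points, from 5.53, 9.35 and 2.44 to 87.8, 88.1 and 87.1.

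In the other direction, a region inside Ptar1 stood at 7.21, 1.67 and 0.673 in R172H and 94.8, 96.0 and 94.5 in null libraries, and fell by 91.9 points (limma adjusted p = 2.76e-12). Inside Ppard, the gene for a lipid-sensing nuclear receptor, a region fell by 89.1 points, from 93.1 ± 1.56 to 3.98 ± 3.73 (SD, n = 3). Inside Sh3bp2, an adaptor gene that acts in osteoclasts and osteoblasts, a region fell by 87.0 points. Regions inside Pgbd5, Sfi1 and Mapre2 fell by 85.7, 81.3 and 80.5 points. All 6 of these regions were called in 3 of 3 R245W libraries, as were those near Ddr1, Gnas, Sirpa, Zfp90 and Piezo2, but not that in Pcdh9.

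Shifts at shared regions and regions of a single line went together around the same genes. At genes with at least 3 more regions in R172H alone, 47.5% of 1730 shared regions rose and 24.8% fell, and at genes with at least 3 more in null alone 22.7% of 1787 rose and 45.3% fell, against 36.1% and 27.9% over all genes. The 2 measures come from the same libraries and are not independent.

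Osteoblast genes had more regions in null alone. Of 26 listed genes 24 had regions, of which 4 had more in R172H alone and 10 more in null alone, 12 regions against 41. Over all genes with a region, the background for this and the later lists, 26.7% had more in R172H alone and 20.3% more in null alone. Their regions numbered 10864 against 8669, and 36.1% of their shared regions rose and 27.9% fell. Runx2, the master factor of bone formation, had 6 in null alone against 1 in R172H alone, and the osteocyte matrix gene Dmp1 5 against 0. No gene of the list had an end open in a single line, and 24 of 74 shared regions rose and 24 fell, near the shares over all genes. The end of Spp1, which encodes osteopontin, stood at 36.9, 26.8 and 28.5 in R172H and 75.7, 74.3 and 72.9 in null libraries and fell by 43.6 points (limma adjusted p = 5.16e-09). The Runx2 end fell from 85.5 ± 0.07 to 76.5 ± 3.82 (SD, n = 3; adjusted p = 1.39e-05). Sparc, the gene for osteonectin, had 1 end that fell by 32.1 points and 1 that rose by 21.4, and Sp7 1 end that fell by 12.2 and 1 that rose by 33.7. Both ends of the collagen gene Col1a2 rose, by 9.76 and 16.3 points, and the end of Sost, a Wnt inhibitor made by osteocytes, rose by 24.6 (adjusted p = 0.00216). The end of Col1a1 stood at 81.3 ± 0.35 and 76.5 ± 1.62 and did not pass the test (adjusted p = 0.136).

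Adipocyte genes went the other way, in a list of 10. Of these 5 had more regions in R172H alone and 0 more in null alone, 13 regions against 1. Of 22 shared regions 14 (63.6%) rose and 4 (18.2%) fell. The end of Lpl, the lipoprotein lipase gene, rose from 42.5, 43.5 and 39.5 in null to 86.8, 89.5 and 89.6 in R172H libraries, 46.8 points (limma adjusted p = 1.27e-11). Retn, which encodes the hormone resistin, rose by 65.0 points, and Pparg, the lead factor of fat cell formation, by 20.9 (adjusted p = 0.000671). Lpl and Retn lie on chromosome 8, whose regions as a whole shifted by a median of 7.19 points.

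Of 56 Wnt pathway genes, 29 had more regions in R172H alone and 7 more in null alone, 92 regions against 36. Among ligands, Wnt2 (71.3, 69.3 and 71.6), Wnt3a (7.88, 26.9 and 22.6) and Wnt7b (50.6, 55.3 and 48.3) had ends open in R172H alone, while Wnt6 (47.2, 53.2 and 48.8) and Wnt10b (48.8, 56.4 and 53.8) had ends open in null alone. Wnt7b, a ligand that promotes bone formation, also had 9 regions in R172H alone and 1 in null alone. The receptor gene Fzd10 (32.1, 26.0 and 20.1) and the secreted inhibitor Dkk1 (17.7, 16.9 and 18.1) were open at an end in R172H alone. The inhibitor gene Sfrp1 had 6 regions in R172H alone and 0 in null alone, and the R-spondin receptor Lgr4 5 and 0. With lists of equal length the summed difference for this list was 31 regions in place of 56.

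Retinoic acid genes differed most at the enzymes that make the hormone. Aldh1a2 and Aldh1a1, retinaldehyde dehydrogenases, had 9 regions each in R172H alone and 0 in null alone. Their ends were open in R172H alone, at 80.2, 80.7 and 80.4 for Aldh1a2 and at 14.6, 27.1 and 33.3 for Aldh1a1. An annotated promoter of Aldh1a1 (chr19:20601718-20602017) lay in another, stronger R172H-alone region. The lowest percentile of that region was 74.7, and it was called in 3 of 3 R245W libraries. The retinol receptor Stra6 had 6 and 0 and the nuclear receptor Rarb 4 and 0, while the end of Crabp2, a carrier of retinoic acid, was open in null alone at 62.8, 62.8 and 59.6. In all, 7 of 19 genes had more regions in R172H alone and 5 more in null alone, 39 regions against 14, of which Aldh1a1 and Aldh1a2 held 18. Within 20 kb the summed difference was 10 regions in place of 25.

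Of 35 osteosarcoma suppressors and oncogenes, 34 had regions, 17 with more in R172H alone and 5 with more in null alone, 56 regions against 18. Ends open in R172H alone included those of Cdkn2a and Cdkn2b, in the interval above, and of the receptor kinase Kit (71.7, 76.6 and 73.4). The end of Pdgfra, a neighbour of Kit, was open in null alone at 15.1, 23.6 and 27.8. Myc had 4 regions in R172H alone and 0 in null alone, and its ends went opposite ways, from 90.3 ± 0.69 to 94.3 ± 0.62 (SD, n = 3; limma adjusted p = 0.0013) and from 24.4 ± 5.84 to 6.41 ± 5.24 (adjusted p = 0.00535). The ends of Rb1 and Nf1 were open in all 6 libraries.

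Genes that p53 is known to activate were mostly open at their ends in both lines. Of 30 listed genes, 27 had an end open in all 6 libraries, against 12159 (55.6%) of all 21887 protein-coding genes. Perp had a mixed pattern, and Dram1 and Cdkn1a had no peak at either end of their spans. A second annotated start of Cdkn1a lies inside its span. More regions in R172H alone were found at 6 of the 30 and more in null alone at 9, against 26.7% and 20.3% of all genes with a region. Of 62 shared regions 19 rose (30.6%) and 21 fell (33.9%), near the 36.1% and 27.9% over all genes. Mdm2, which encodes the ubiquitin ligase of p53, had 1 end at 86.6, 85.1 and 84.6 in R172H and 82.7, 83.9 and 84.0 in null libraries. These did not overlap, but the difference of 1.88 points did not pass the test (limma adjusted p = 0.843). Its other end rose by 24.6 points (adjusted p = 0.0033). All 22 cell-cycle genes and 19 of 20 housekeeping genes had ends open in all 6 libraries.

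**Figure D5:**
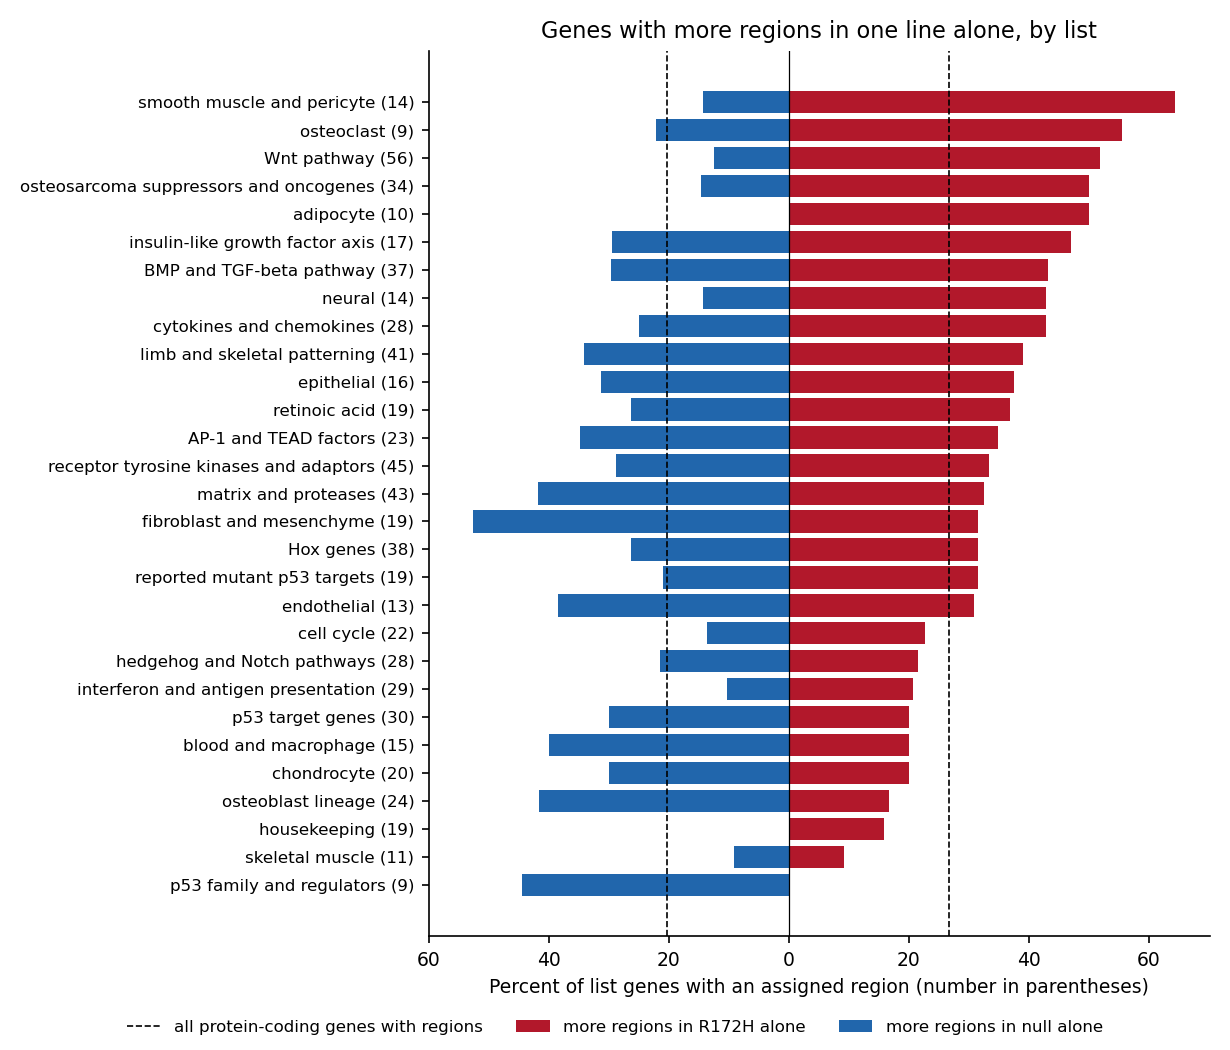
Percent of each list's genes with an assigned region (their number in parentheses) that had more regions in R172H alone (red, right) or more in null alone (blue, left). Dashed lines mark the same shares over all genes, 26.7% and 20.3%. The adipocyte list has 0 genes on the left, and the osteoblast list has 10 of 24 on the left and 4 on the right.

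Markers of other cell types were open at an end in part. Over all protein-coding genes 33.6% had no open end in either line. Of 14 endothelial markers 8 had none and 3 had ends open in all 6. Of 12 skeletal muscle markers 6 had no open end, of 16 blood and macrophage markers 7, and 6 of 16 epithelial markers, the last near the share over all genes. Ends open in R172H alone included those of the keratin genes Krt14 (78.3, 80.0 and 80.5) and Krt19 (39.7, 47.0 and 31.6) and of the smooth muscle gene Cnn1 (60.5, 66.7 and 68.8). The 16 epithelial markers were split, 6 with more regions in R172H alone and 5 with more in null alone, 12 regions against 10. Among 14 smooth muscle and pericyte markers, 9 had more regions in R172H alone and 2 more in null alone. Fibroblast and mesenchyme markers went the other way: of 19 genes 6 had more regions in R172H alone and 10 more in null alone. Of their 61 shared regions 14 rose (23.0%) and 28 fell (45.9%), against 36.1% and 27.9% over all genes. Among all genes with a region, 26.7% had more in R172H alone and 20.3% more in null alone. The part of other cells in the results above was not tested.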

How the data were processed

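ATAC-seq peak lists of 3 R172H and 3 null libraries were analysed, with 3 R245W libraries used for calls only. Per the submitters' processing notes, the authors worked on GRCm38 with Bowtie 1.1.2 and MACS2 2.1.0, and also ran Trimmomatic 0.33, bcl2fastq 2.17 and deepTools. Not given in the sources used here are the settings, read filters and treatment of the Tn5 offset and of reads that fit several places. Each deposited list held 1 library, not a pool, with an integer score, the fold enrichment at the summit as a ratio, and −log10 p and −log10 q per peak. All are the authors' values, and the lowest −log10 q of each list, from 1.30 to 1.42, lies near a q-value of 0.05.

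Lists were merged at an overlap of 1 bp. Ranks of −log10 q among regions called in all 6 libraries were turned into normal scores and tested with limma 3.58.1 (R 4.3.3, trended eBayes, Benjamini-Hochberg over 38836 regions, threshold 0.05). Library values were tested by exact permutation. In simulated data of this size, with 200 regions shifted by a normal score of 1, limma recovered 162 of them and called 5 others. Far more regions were called in the real data, so the simulation does not give their error rate. Genes came from RefSeq GRCm38.p6, by window (1000 bp) and nearest end (50000 bp). Named genes were, per direction, the 6 with the most net regions, the 6 strongest single-line regions at and away from gene ends, the 6 largest shifts, and list members with regions at ends. The intervals with Cdkn2a and Mir344, the 1 Mb windows and a few further genes were chosen after their values were seen. The members and gene lists were chosen with earlier results of these data known. Depth is unknown. Exons and introns were not used here, and a few genes that these rules picked are not reported here.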

Additional observations from a re-analysis of the deposited data

How the results depend on the processing

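Under every alternative run, the counts of single-line regions, of gene ends and of rank shifts stayed within 1.5 times their main values. With lists cut to equal length, single-line regions numbered 15437 and 14430, an R172H share of 51.7% in place of 58.5%. Open ends then numbered 594 and 364 in place of 698 and 279. The excess in R172H was smaller after this cut, which drops the weakest peaks of the longer lists. Whether list length or a larger number of open sites gave the excess was not tested. Counting 2 or 3 of 3 libraries gave 23520 and 16258 regions, and a −log10 q of at least 5 gave 16740 and 12855. Leaving out 1 library gave 729 to 789 and 302 to 317 gene ends, and 13128 to 13365 regions that rose and 11085 to 11368 that fell. Ranking fold enrichment in place of −log10 q gave 10238 and 9390 shifts, of which 8068 and 7541 were in the main sets and 1003 had turned direction. With percentiles of the whole list, 16770 rose and 9868 fell, so 63.0% of shifts were rises in place of 54.4%. The gene-end call of Cdkn2a, all 24 strongest single-line regions and the 9 Mir344 hairpins kept their calls in every alternative run on them. Leaving out 1 library cannot undo a call of 3 of 3 against 0 of 3, and the cuts on strength remove weak peaks. For regions picked as the strongest the outcome was therefore largely fixed beforehand. Net regions per gene moved by over 1.5 times in 14 of 156 gene and setting pairs, most of them with the assignment distance, and none turned direction. The summed difference of the retinoic acid list was 25 regions in the main setting and 10 at the shorter assignment distance. Replicate numbers did not pair the libraries: same-numbered deviations correlated at -0.0086, 0.01 and -0.0001. With the replicate number as a block 13720 regions rose and 11537 fell, of which 13627 and 11431 were among the main calls.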

Other observations

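Genes of other signalling and matrix groups differed in both directions. Lmx1b, the factor that sets the dorsal side of the limb, had 9 R172H-alone regions and 0 null-alone regions and Meis1 10 and 3, and the end of Hand2, a limb and heart factor, was open in R172H alone at percentiles 84.8, 87.1 and 87.1. The growth factor gene Igf2 had 7 and 0, and Igf2bp2, which encodes a protein that binds its RNA, 1 and 6. In the hedgehog and Notch lists, the co-receptor Boc had 6 and 0, the factor Gli2 5 and 0 and the receptor Notch2 0 and 6, and 5 of the 6 shared regions near Notch2 fell in R172H.

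Matrix genes had 63 regions in R172H alone and 76 in null alone, against 10864 and 8669 over all genes. The end shared by Col4a1 and Col4a2, basement membrane collagens transcribed in opposite directions, was open in R172H alone at 91.6, 90.5 and 92.2, while Col6a3 had 2 regions in R172H alone and 9 in null alone and an end open in null alone at 54.6, 61.5 and 60.7. Cytokine genes with an end region in R172H alone were Il33 (65.3, 69.3 and 71.1), Il1rn (66.1, 70.7 and 70.7) and Tslp (62.4, 60.04 and 56.4), all in 0 of 3 R245W libraries. Those in null alone were Cxcl5 (66.5, 68.8 and 65.8), Ccl7 (59.5, 61.0 and 60.3), Cxcl2 (24.8, 27.5 and 25.3) and Lif (35.6, 20.9 and 29.3), all in 3 of 3 R245W libraries.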
